A study of Mus musculus with 26 samples.

Results

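The results below follow 9 genes out of 24682 gene symbols counted in mouse testis. They were selected on their transcript counts, which moved the same way in testes with either of the Nkapl alleles, the knockout and the allele called TGdel. Rassf1, Kri1, Top3a and Ccdc77 were higher with both alleles, and Fa2h, Tsnaxip1, Ccdc38, Elfn1 and Pik3cd were lower with both. The values in those testes therefore chose the genes and are given as a description, with no test. Testes lacking Sox30 and sorted germ cells were not used in the choice, and the tests are made there.

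Nkapl is an intronless germ-cell relative of Nkap, which encodes a nuclear protein that acts with RNA-processing and repressor complexes. Male germ cells pass from spermatogonia through meiosis as spermatocytes, the pachytene stage being the long one in which homologous chromosomes are paired and recombine, and then become haploid round spermatids that build the acrosome and the flagellum. Sox30 is a transcription factor known for its need in the haploid phase.

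The testis RNA came from C57BL/6 mice at postnatal day 21, an age at which the first round spermatids appear. The Nkapl set held 3 libraries headed wild type and 2 headed Nkapl knockout, the Sox30 set 3 wild type and 2 Sox30 knockout, and the TGdel set 2 wild type and 3 homozygous for TGdel (TGdel/TGdel). A frameshift mutation of NKAPL is named in the title of the series, and no label ties it to TGdel. Pachytene spermatocytes (PS) and round spermatids (RS) from wild-type and Nkapl knockout mice, also titled day 21, gave 2 libraries for each of the 4 groups. The labels name no strain for the sorted cells, no way of sorting, no promoter or Cre and no founder line. The series describes its samples as biological triplicates, and nothing else says whether libraries came from separate animals, so p-values measure the spread between these libraries.

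The 26 files held 23 distinct libraries, because 3 columns were repeats and were counted once. The column heading and GEO's record disagreed on the sample for 15 of 18 testis files. The heading is used here for every library, and for 4 of them heading and record name different groups: wild type 3 of the Nkapl set, wild type 3 of the Sox30 set, wild type 2 of the TGdel set and TGdel 3. Total counts per library were 20120729 to 25514132 in the Nkapl set, 34167576 to 40010106 in the Sox30 set, 16469667 to 17822056 in the TGdel set and 18155299 to 19569272 in sorted cells. Levels are CPM, counts scaled to a common library total, with edgeR's trimmed mean of M-values applied within each set, so levels are compared within a set only.

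The targeted genes did not follow every label. Nkapl was at 60.8 and 57.8 CPM in the libraries headed knockout and at 74.9, 79.5 and 79.9 in their wild types. In TGdel testes it was at 107, 118 and 126 CPM against 101 and 103. In spermatids it was at 24.6 and 23.6 CPM in the knockout and at 88.4 and 90.3 in the wild type, a log2 difference of -1.89 ± 0.07 (SE). In spermatocytes the direction was the opposite, with 127 and 125 CPM in the libraries labelled knockout and 90.1 and 86.0 in those labelled wild type, a log2 difference of 0.51 ± 0.05. The Nkapl level goes against the spermatocyte labels, so those groups are written as the libraries labelled knockout and labelled wild type. Sox30 was at 44.7 and 61.5 CPM in its knockout and at 77.6, 86.2 and 72.4 in the wild types. The sources used here do not say which part of each gene the alleles remove, so reads from a remaining part cannot be told apart from an intact transcript.

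The choice itself was traced to the libraries on which heading and record agree. Among 15906 genes tested in both alleles there, 4 passed edgeR's quasi-likelihood test (Benjamini-Hochberg adjusted p under 0.05) as higher in both, and these are Rassf1, Kri1, Top3a and Ccdc77. In those libraries 12.7% of genes were called higher and 23.0% lower in the knockout, and 0.0493% and 1.97% in TGdel. As lower in both passed 310 genes, and the 5 named ones are those with the smallest p in TGdel. The next in that order, just outside, were Iqub, at -1.13 in the knockout and -1.20 in TGdel on the log2 scale, and Ngfr, at -2.34 and -2.47. Pik3cd, the last inside, stood at -1.60 and -1.39. By heading, which adds the other libraries, 14 genes were higher and 164 lower in both of 15849 tested, and Ccdc77 then missed the threshold in TGdel.

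Sequence just before the start site is shown for 6 of the 9 genes. Among the genes with a promoter entry, each rising gene held more CpG there than each falling gene, in 1 window of each. Top3a and Fa2h have no entry, and the difference was not tested. Each line is the 250 bases before 1 RefSeq start on the gene's own strand (GRCm38.p6), 5′ to 3′, with every CpG in capitals. The first 3 genes rose and the last 3 fell.
Rassf1: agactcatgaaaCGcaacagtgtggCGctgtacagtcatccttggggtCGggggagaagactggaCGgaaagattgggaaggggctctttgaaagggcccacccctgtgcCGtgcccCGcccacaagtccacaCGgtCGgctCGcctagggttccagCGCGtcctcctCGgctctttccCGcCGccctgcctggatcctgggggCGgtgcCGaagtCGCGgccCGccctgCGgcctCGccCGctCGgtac
Kri1: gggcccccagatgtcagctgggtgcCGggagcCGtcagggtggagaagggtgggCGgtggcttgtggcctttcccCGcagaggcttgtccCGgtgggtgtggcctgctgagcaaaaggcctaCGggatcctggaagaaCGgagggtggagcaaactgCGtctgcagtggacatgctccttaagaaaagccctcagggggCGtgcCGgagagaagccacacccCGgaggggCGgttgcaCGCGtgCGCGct
Ccdc77: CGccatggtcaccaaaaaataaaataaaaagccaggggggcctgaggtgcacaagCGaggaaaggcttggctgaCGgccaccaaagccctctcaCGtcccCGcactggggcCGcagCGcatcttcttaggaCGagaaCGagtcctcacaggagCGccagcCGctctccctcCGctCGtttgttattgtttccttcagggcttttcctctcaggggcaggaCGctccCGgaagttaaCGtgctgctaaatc
Tsnaxip1: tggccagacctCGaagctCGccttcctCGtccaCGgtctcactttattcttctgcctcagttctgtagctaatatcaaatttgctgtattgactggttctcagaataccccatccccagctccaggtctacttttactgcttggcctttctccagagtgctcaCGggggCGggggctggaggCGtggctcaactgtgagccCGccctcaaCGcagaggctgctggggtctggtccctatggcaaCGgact
Ccdc38: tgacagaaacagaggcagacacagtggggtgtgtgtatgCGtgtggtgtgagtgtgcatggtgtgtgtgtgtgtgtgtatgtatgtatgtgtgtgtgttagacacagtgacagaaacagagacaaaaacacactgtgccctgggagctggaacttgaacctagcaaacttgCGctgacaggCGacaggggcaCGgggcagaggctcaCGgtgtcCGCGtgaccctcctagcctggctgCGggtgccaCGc
Elfn1: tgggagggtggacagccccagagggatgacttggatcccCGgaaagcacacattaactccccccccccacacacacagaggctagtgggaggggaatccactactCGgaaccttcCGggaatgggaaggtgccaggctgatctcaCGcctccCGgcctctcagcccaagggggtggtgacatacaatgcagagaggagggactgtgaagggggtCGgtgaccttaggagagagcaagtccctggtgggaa

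These windows lie at chr9:107551305-107551554 (plus strand) for Rassf1, chr9:21287970-21288219 (minus) for Kri1, chr6:120364370-120364619 (minus) for Ccdc77, chr8:105827494-105827743 (plus) for Tsnaxip1, chr10:93540382-93540631 (plus) for Ccdc38 and chr5:139907616-139907865 (plus) for Elfn1. Rassf1 has 23 CpG, and Kri1 and Ccdc77 have 16 each. Tsnaxip1 has 10, Ccdc38 9 and Elfn1 6, and the entry for Pik3cd, whose start lies 3863 bases from the 5′ end of its gene in GENCODE M21, has 6. Over 32536 RefSeq promoter entries the median was 6, with quartiles of 2 and 16. In these windows the 3 rising genes with an entry are thus at or above the upper quartile, Kri1 and Ccdc77 exactly at it. None of the 4 falling genes reaches it. RefSeq lists 2 starts for Rassf1, 4 for Ccdc77, 2 for Ccdc38 and 3 for Pik3cd, and the values are for 1 window of each gene. GC content was 57.6% to 67.2% in the rising and 53.6% to 60.8% in the falling genes, against a median of 52.4%.

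Short motifs were searched in the same 250 bases on both strands, and a match is a description of letters only. The GC box GGGCGG, found in 33.0% of all promoters, occurs 4 times in Rassf1, 2 times in Kri1, 2 times in Tsnaxip1 and once in Pik3cd. CCAAT, in 33.8% of promoters, occurs once in Rassf1. GTTGCC, a part of the X-box bound by RFX factors and present in 10.3%, lies 11 bases before the Tsnaxip1 start. ACAATG, a core of SOX binding sites present in 10.5%, lies 68 bases before the Elfn1 start. No match was found in these 7 windows for TGACGTCA (the CRE, 1.56% of promoters), TAACNG (MYB, 19.9%) or TATAAA (the box bound by TBP, 12.3%).

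Rassf1 (ENSMUSG00000010067, chr9:107551555-107562267, plus strand) encodes a Ras-association scaffold that binds the MST kinases of the Hippo pathway and microtubules, and it is known as a tumour suppressor. In the Nkapl set it was at 69.4, 76.4 and 75.4 CPM in wild types 1 to 3 and at 104 and 92.6 in the knockouts. The TGdel set gave 109 and 114 CPM in wild type and 198, 206 and 216 in the mutants. All mutant libraries of both sets lay above all wild types. In sorted cells it was at 99.9 and 107 CPM in spermatocytes labelled wild type and 219 and 213 in those labelled knockout, and at 28.6 and 30.9 in wild-type and 58.9 and 59.7 in knockout spermatids. The Rassf1 level was thus about equally raised in both cell types: 2.08-fold in the spermatocytes labelled knockout (adjusted p = 6.4e-16) and 1.99-fold in spermatids (adjusted p = 3.1e-13, both by edgeR's quasi-likelihood test). GENCODE places an antisense gene, Gm9917, over 2496 exon bases of Rassf1, and since the sources used here give no strand setting for the counting, reads of the pair cannot be told apart.

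Kri1 (ENSMUSG00000035047, chr9:21273457-21287969, minus strand) encodes a nucleolar factor for assembly of the small ribosomal subunit. It was at 55.4, 64.7 and 64.3 CPM in the wild types of the Nkapl set and at 81.5 and 82.0 in the knockouts, and at 98.1 and 96.01 against 157, 172 and 175 in the TGdel set. Again no mutant library reached down to a wild type. Spermatocytes labelled wild type held 73.3 and 79.7 CPM and those labelled knockout 183 and 174. Wild-type spermatids held 17.5 and 16.8 CPM and knockout spermatids 42.3 and 41.0. These are rises of 2.33-fold (adjusted p = 8.6e-17) and 2.43-fold (adjusted p = 2.6e-14, edgeR). The Kri1 gene shares 1405 exon bases with Atg4d on the other strand, whose log2 difference was 0.64 ± 0.07 in the spermatocytes labelled knockout and 0.23 ± 0.08 in spermatids. Atg4d was at 0.02 in Nkapl knockout testis and at 0.22 in TGdel testis.

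Top3a (ENSMUSG00000002814, chr11:60740058-60777365, minus strand) encodes the topoisomerase that works with the BLM helicase and RMI proteins to take apart joined DNA molecules in recombination. In the Nkapl set it was at 80.4, 85.3 and 79.9 CPM in wild type and at 132 and 128 in the knockout. In the TGdel set it was at 65.6 and 62.8 CPM against 106, 94.6 and 101. The groups do not overlap in either set. Sorted cells gave 47.9 and 50.2 CPM in spermatocytes labelled wild type, 159 and 161 in those labelled knockout, 23.7 and 27.9 in wild-type spermatids and 45.3 and 42.9 in knockout spermatids. The rise was 3.26-fold in the spermatocytes labelled knockout (adjusted p = 3.8e-19) and 1.71-fold in spermatids (adjusted p = 7.3e-10, edgeR), so Top3a was the member whose rise differed between the cell types.

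Ccdc77 (ENSMUSG00000030177, chr6:120324323-120364374, minus strand) encodes a coiled-coil protein. Its testis differences were the least of the 9 genes: 52.9, 56.4 and 55.6 CPM against 62.2 and 63.1 in the Nkapl set, and 55.9 and 67.9 against 86.4, 84.6 and 93.0 in the TGdel set. Still no wild type reached a mutant library. In sorted cells it was at 44.6 and 45.3 CPM in spermatocytes labelled wild type, 93.3 and 93.4 in those labelled knockout, 11.03 and 9.77 in wild-type spermatids and 21.9 and 20.8 in knockout spermatids. Both cell types gave nearly the same rise, 2.08-fold (adjusted p = 1.1e-14) and 2.05-fold (adjusted p = 1.6e-10, edgeR). The first exon bases, 251 in number, lie over Kdm5a on the other strand, which was at 0.43 ± 0.07 on the log2 scale in the spermatocytes labelled knockout and at -0.01 ± 0.07 in spermatids.

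**Figure D1:**
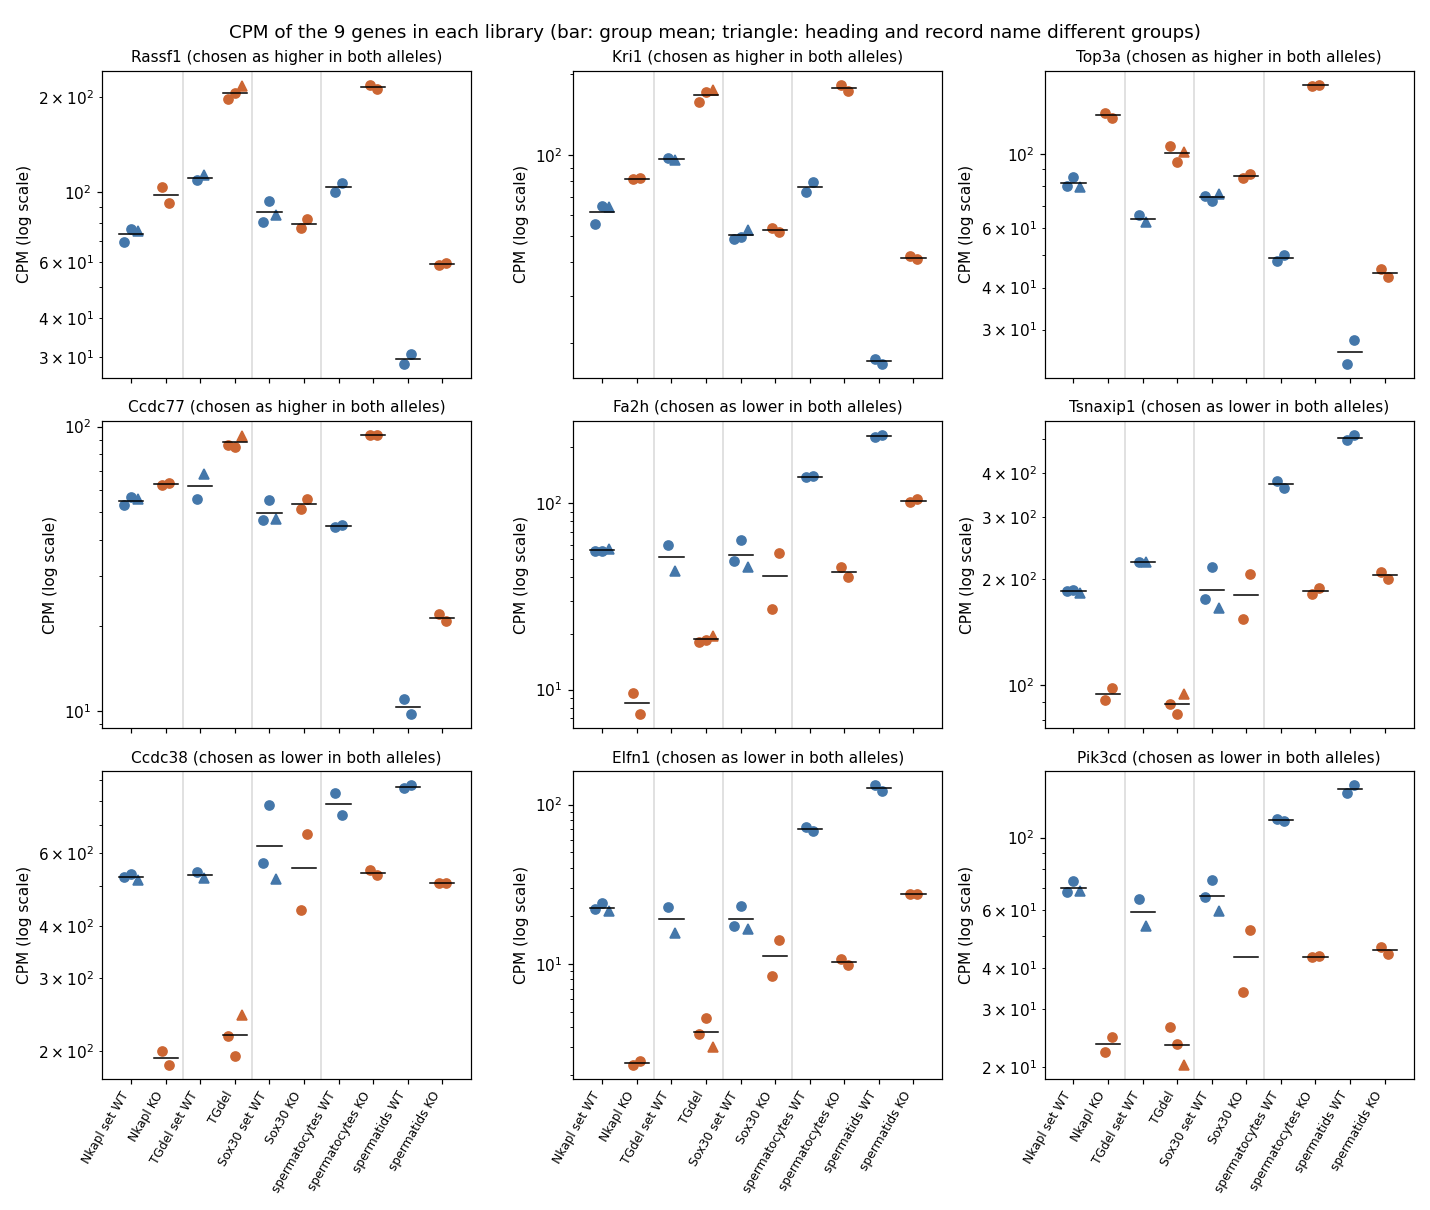
CPM on a log scale of each of the 9 genes in each of the 23 libraries, with wild type (WT) in blue, mutant or knockout (KO) in orange, a bar at each group mean and a triangle where heading and record name different groups. In the Nkapl, TGdel and both sorted pairs the orange points lie above the blue ones for the first 4 genes and below them for the last 5, while the Sox30 pair overlaps for 6 of the 9.

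Fa2h (ENSMUSG00000033579, chr8:111345135-111393824, minus strand) encodes fatty acid 2-hydroxylase, which makes the 2-hydroxy fatty acids of sphingolipids. The Nkapl set gave 55.7, 55.7 and 56.5 CPM in wild type and 9.63 and 7.37 in the knockout, and the TGdel set 60.1 and 43.3 against 18.1, 18.4 and 19.4. All mutant libraries lay far under all wild types. Spermatocytes labelled wild type held 138 and 140 CPM, those labelled knockout 45.4 and 40.3, wild-type spermatids 226 and 232, and knockout spermatids 101 and 105. Fa2h fell 3.23-fold in the spermatocytes labelled knockout (adjusted p = 3.0e-19) and 2.22-fold in spermatids (adjusted p = 7.3e-17, edgeR).

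Tsnaxip1 (ENSMUSG00000031893, chr8:105827731-105844680, plus strand) encodes a testis protein named for binding translin-associated factor X. It was at 185, 187 and 183 CPM in the wild types of the Nkapl set and at 91.1 and 98.2 in the knockouts. In the TGdel set the wild types held 224 and 223 CPM and the mutants 88.4, 82.8 and 94.5. Spermatocytes labelled wild type held 379 and 364 CPM, those labelled knockout 182 and 189, wild-type spermatids 496 and 513, and knockout spermatids 209 and 201. The mutant or knockout group lay lower in each of these pairs with no overlap, and the tested falls were 2.002-fold in the spermatocytes labelled knockout (adjusted p = 2.0e-16) and 2.46-fold in spermatids (adjusted p = 1.6e-19, edgeR). Only 8 exon bases are shared with Cenpt on the other strand.

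Ccdc38 (ENSMUSG00000036168, chr10:93540632-93584327, plus strand) encodes a coiled-coil protein of developing sperm that is needed for the flagellum. In the Nkapl set it was at 525, 534 and 517 CPM in wild type and 199.97 and 186 in the knockout, and in the TGdel set at 542 and 523 against 218, 195 and 245. The mutant testes thus held well under the wild-type level. The sorted cells differed by less: 839.6 and 739.9 CPM in spermatocytes labelled wild type and 545 and 533 in those labelled knockout, and 862 and 874 in wild-type and 508 and 509 in knockout spermatids. The falls were 1.47-fold (adjusted p = 7.7e-11) and 1.71-fold (adjusted p = 4.1e-14, edgeR). Ccdc38 shares 567 exon bases with Snrpf on the other strand, whose log2 difference was 0.26 in the spermatocytes labelled knockout, -0.11 in spermatids and -0.10 in TGdel testis.

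Elfn1 (ENSMUSG00000048988, chr5:139907943-139974722, plus strand) encodes a membrane protein with leucine-rich repeats and a fibronectin domain, known in neurons as a partner of group III metabotropic glutamate receptors. It was at 22.2, 23.9 and 21.6 CPM in the wild types of the Nkapl set and at 2.33 and 2.47 in the knockouts, and at 22.7 and 15.5 against 3.61, 4.58 and 2.99 in the TGdel set. No other gene of the 9 differed by as large a fold in any of the 4 Nkapl comparisons. Spermatocytes labelled wild type held 72.1 and 67.8 CPM and those labelled knockout 10.7 and 9.82. Wild-type spermatids held 132 and 122 CPM and knockout spermatids 27.6 and 27.4. Elfn1 fell 6.80-fold in the spermatocytes labelled knockout (adjusted p = 2.3e-21) and 4.62-fold in spermatids (adjusted p = 1.9e-21, edgeR).

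Pik3cd (ENSMUSG00000039936, chr4:149649168-149702571, minus strand) encodes the p110 delta catalytic subunit of phosphoinositide 3-kinase, best known from leukocytes. The Nkapl set gave 68.3, 73.5 and 68.5 CPM in wild type and 22.1 and 24.7 in the knockout. The TGdel set gave 65.1 and 53.6 against 26.4, 23.4 and 20.3. Both sets again show separate groups. In sorted cells it was at 114 and 112 CPM in spermatocytes labelled wild type, 43.2 and 43.6 in those labelled knockout, 137 and 144 in wild-type spermatids and 46.4 and 44.3 in knockout spermatids. Its fall was 2.60-fold (adjusted p = 1.8e-17) in the spermatocytes labelled knockout and 3.10-fold in spermatids (adjusted p = 1.0e-19, edgeR). The summed CPM of 8 leukocyte markers, Ptprc and Csf1r among them, was 18.8 and 18.9 in wild-type and 43.7 and 45.4 in knockout spermatids. In spermatocytes by label it was 4.57 and 5.83 against 7.56 and 8.01. The Nkapl set gave 67.3 to 76.3 in wild type and 66.2 and 67.5 in the knockout, and the TGdel set 86.6 and 94.9 against 96.1 to 129. The part of leukocytes in the Pik3cd differences was not tested.

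The fold changes of the 9 genes in testis were not tested between the alleles. The Nkapl knockout differed from its wild types by 0.19 to 0.67 on the log2 scale for the rising genes and by -3.22 to -0.97 for the falling genes. In TGdel testes the ranges were 0.51 to 0.89 and -2.36 to -1.28. All 9 genes had groups that do not overlap in both sets, which the choice favours, since it used all but 3 of these libraries. Groups did not overlap for 29.5% (higher) and 32.9% (lower) of all genes tested in the Nkapl set and for 16.1% and 17.3% in the TGdel set. By edgeR's test 17.8% of genes were called higher and 26.1% lower in the Nkapl knockout, against 0.200% and 1.05% in TGdel. In bulk testis, fewer cells of a type and less RNA per cell cannot be told apart.

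**Figure D2:**
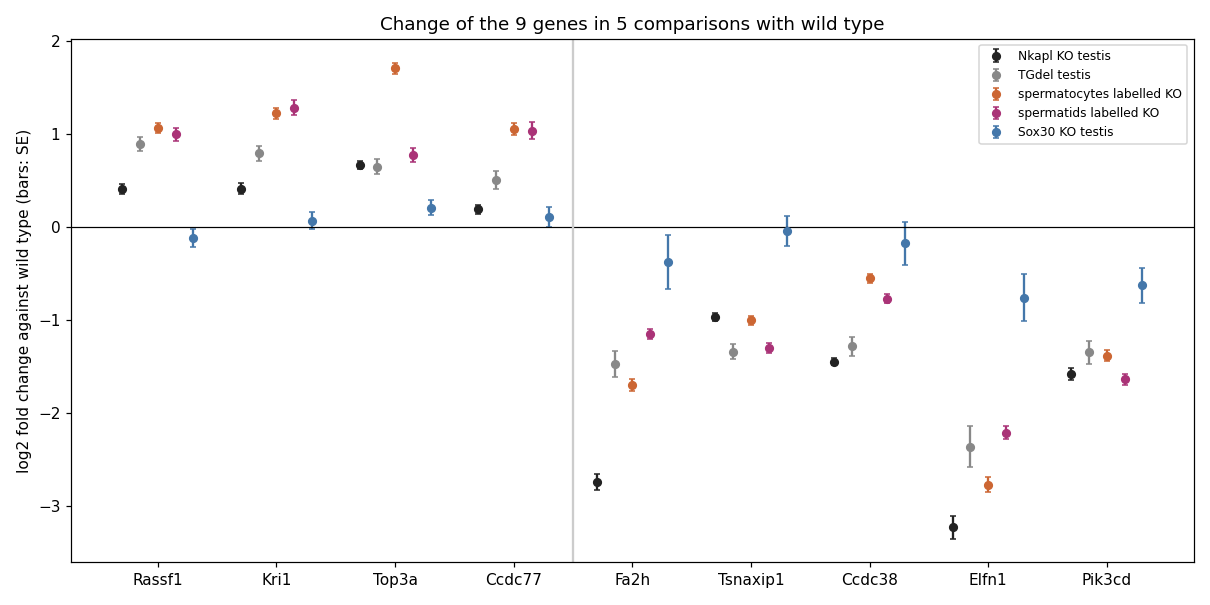
Log2 fold change against wild type of the 9 genes (points, with bars for the SE) in 5 comparisons, KO meaning knockout. Nkapl knockout and TGdel testis, which chose the genes, and both sorted cell types lie on one side of 0 for each gene, and Sox30 knockout testis lies nearer 0, between -0.76 and 0.21.

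The library headed TGdel 3 and the one headed wild type 2 of that set took no part in the choice as traced above. Between this pair all 9 genes differed in the direction that chose them. The ratio of TGdel 3 to wild type 2 was 1.90 for Rassf1, 1.82 for Kri1, 1.61 for Top3a and 1.37 for Ccdc77. It was 0.447 for Fa2h, 0.423 for Tsnaxip1, 0.469 for Ccdc38, 0.193 for Elfn1 and 0.379 for Pik3cd. With 1 library a side there is no test, and the share of all genes that differed in such a way was not counted. The 9 genes come from the same libraries, so they are not separate checks of the labels. In the file records these libraries have each other's group, and under the records every one of these differences would run the other way. Wild type 3 of the Nkapl set, recorded as a knockout, lay nearer the wild types for 9 of 9 genes, also with no count over all genes.

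All 9 genes passed the test in both sorted cell types, in the direction seen in testis. Of the members, 4 were called higher and 5 lower in knockout spermatids, where 29.0% of all 15805 genes were called higher and 31.0% lower. By label, spermatocytes gave the same counts, with 33.6% of genes called higher and 25.7% lower. The log2 differences of the rising genes were 0.77 to 1.28 in spermatids and 1.05 to 1.70 in spermatocytes, and those of the falling genes -2.21 to -0.77 and -2.77 to -0.55. The Nkapl transcript itself moved in opposite directions in these comparisons, so the 9 genes followed the labels where Nkapl did not.

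In the libraries labelled wild type, the rising and falling genes were also split by cell type. All 4 rising genes were lower in spermatids than in spermatocytes, by 3.48-fold for Rassf1, 4.46-fold for Kri1, 1.90-fold for Top3a and 4.32-fold for Ccdc77 (adjusted p 2.5e-12 or less, edgeR). All 5 falling genes were higher in spermatids, but by less: 1.65-fold for Fa2h, 1.36-fold for Tsnaxip1, 1.10-fold for Ccdc38, 1.81-fold for Elfn1 and 1.24-fold for Pik3cd. Their adjusted p was 5.7e-06 or less except for Ccdc38, at 0.0123 (edgeR), whose groups stood apart only narrowly, at 739.9 and 839.6 against 862 and 874 CPM. The call of Ccdc38 was lost without spermatocyte wild type 2, spermatid wild type 1 or spermatid wild type 2, at log2 differences of 0.05, 0.10 and 0.07, and with no filter on low counts, also at 0.07. Among all genes tested, 41.1% were higher and 36.4% lower in spermatids. The spermatocyte labels used here are those that ran against the Nkapl level.

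Per kilobase of exon the falling genes were the more abundant ones in wild-type spermatids. Tsnaxip1 stood highest at 226 ± 5.5 CPM per kb (SD, n = 2) and Ccdc38 next at 202 ± 1.9, followed by Fa2h at 76.1 ± 1.5, Elfn1 at 30.4 ± 1.7 and Pik3cd at 22.4 ± 0.86. The rising genes came after these, with Top3a at 5.61 ± 0.64, Rassf1 at 5.09 ± 0.28, Kri1 at 4.10 ± 0.13 and Ccdc77 at 1.56 ± 0.13. Top3a and Rassf1 did not differ beyond their spread, and the other neighbours in this order stood farther apart than theirs. In the spermatocytes labelled wild type, Kri1 at 18.3 ± 1.1, Pik3cd at 18.0 ± 0.18, Rassf1 at 17.7 ± 0.90 and Elfn1 at 16.8 ± 0.72 CPM per kb were not clearly ordered.

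The levels in the knockout cells can be set against all 4 wild-type sorted libraries at once. In the spermatocytes labelled knockout and in the knockout spermatids, all 5 falling genes lay below every wild-type library of either cell type. For Elfn1 the lowest wild-type level was 67.8 CPM and the highest level in a knockout library 27.6, and for Pik3cd these were 112 and 46.4. Below all wild types in both cell types were 9.57% of all genes tested. All 4 rising genes lay above every wild-type library in the spermatocytes labelled knockout, as did 33.7% of genes, and none did in knockout spermatids, where 19.8% of genes did. Rassf1 in knockout spermatids, at up to 59.7 CPM, stayed between its wild-type spermatids and the spermatocytes labelled wild type.

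Differences between the cell types in the effect were tested as a contrast over all 8 sorted libraries. Of the 9 genes, 2 passed with a higher and 4 with a lower value in spermatids, where 9.02% and 16.4% of all genes passed. Top3a rose less in spermatids, by a difference of -0.93 ± 0.10 (adjusted p = 5.7e-08, edgeR). Fa2h and Elfn1 fell less in spermatids, with differences of 0.54 ± 0.08 and 0.56 ± 0.11 (adjusted p = 1.5e-05 and 0.00044). Tsnaxip1 fell more there, by -0.30 ± 0.07 (adjusted p = 0.0018). Ccdc38 and Pik3cd passed at -0.22 ± 0.07 and -0.25 ± 0.08 (adjusted p = 0.019 and 0.028), calls that DESeq2's size factors and the omission of any one of several libraries ended. Rassf1, Kri1 and Ccdc77 did not pass, at -0.06 (95% interval -0.25 to 0.12), 0.06 (-0.14 to 0.26) and -0.02 (-0.26 to 0.22).

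Markers of the germ cell stages were summed in the same libraries. The summed CPM of 11 round spermatid markers, the acrosome gene Acrv1 and the protamines Prm1 and Prm2 among them, was 94.3 to 134 in the Nkapl wild types and 9.88 to 11.1 in the knockouts, where Prm1, Prm2 and Tnp2 were at 0 counts. In the TGdel set it was 79.3 to 112 in wild type and 18.3 to 64.0 in the mutants, and in the Sox30 set 82.3 to 241 and 16.8 to 29.4. Sorted wild-type spermatids held 7081 to 7326 and knockout spermatids 1940 to 2001. The spermatocytes labelled wild type held 2063 to 2191, so spermatid transcripts were far from absent there, and those labelled knockout 679 to 682. All 11 markers were called lower in both sorted comparisons. In testis 8 of 9 tested were called lower in the Nkapl knockout, 4 of 11 in the Sox30 knockout and 0 of 9 in TGdel. Of all genes tested there, 26.1%, 1.92% and 1.05% were called lower. Pachytene markers such as Sycp3 and Pgk2 did not separate the sorted cell types, with 5 of 9 higher and 4 lower in spermatids. The part of stage composition in the 9 genes' differences was not tested.

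**Figure D3:**
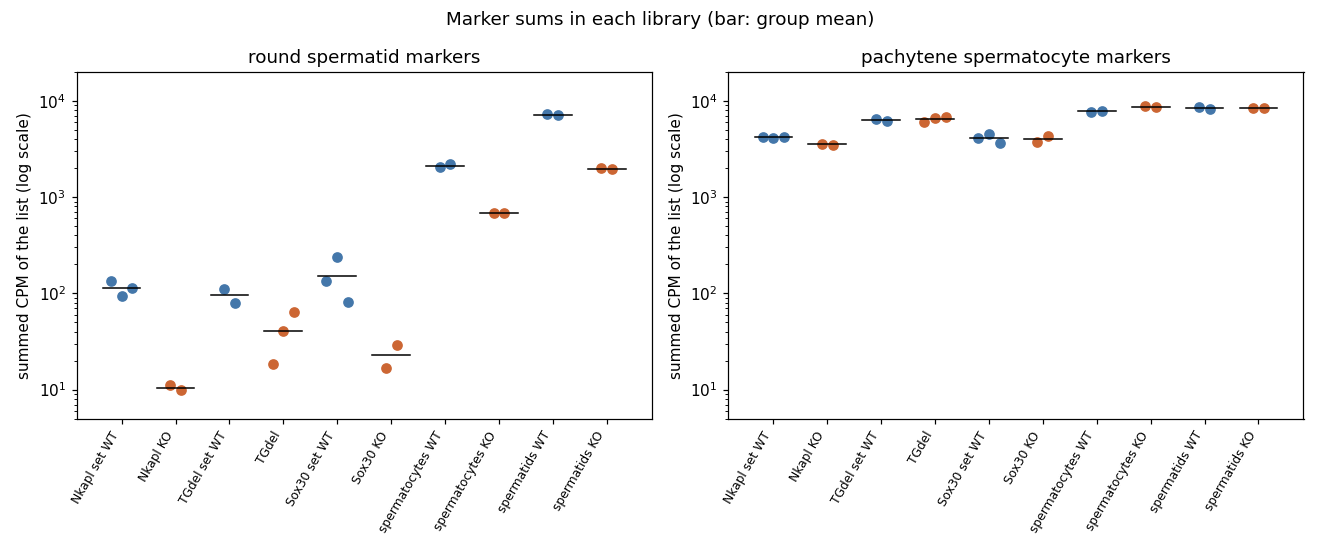
Summed CPM on a log scale of 11 round spermatid markers (left) and 9 pachytene spermatocyte markers (right) in each library, with wild type (WT) in blue, mutant or knockout (KO) in orange and bars at group means. The spermatid sum is lower in every orange group, including Sox30 knockout at 16.8 to 29.4, while the pachytene sum differs far less within each pair.

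Markers of other cell types moved too. The sum of 9 Sertoli cell markers was 1562 to 1607 CPM in the wild types and 1889 to 1985 in the knockouts of the Nkapl set, and its ranges overlapped in the TGdel and Sox30 sets. Among spermatocytes it was 230 to 244 in the libraries labelled wild type and 162 to 164 in those labelled knockout. Spermatogonial markers, 8 in the list, summed to 209 to 220 CPM in the wild types of the Nkapl set and 259 to 262 in the knockouts. Their ranges overlapped in the TGdel and Sox30 sets. The sum of 6 Leydig cell markers was 8.10 to 8.35 CPM in wild-type and 20.2 to 21.5 in knockout spermatids, with all 5 tested called higher. In spermatocytes by label it was 39.6 to 40.5 against 56.8 to 61.1, with 4 of 5 called higher. In Nkapl set testes the Leydig sum went the other way, at 130 to 151 in wild type and 112 to 126 in the knockout. Its ranges overlapped in the TGdel and Sox30 sets. Transcripts of 8 epididymal genes summed to 49.4 to 80.9 CPM in Sox30 knockout testes and 5.31 to 7.26 in their wild types, and 1 wild type of the TGdel set stood at 48.7. The part of these cells in the results was not tested.

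In Sox30 knockout testes none of the 9 genes passed by edgeR's test, where 0.505% of 17816 genes were called higher and 1.92% lower, and DESeq2 called none of them either. Sox30 itself did not pass in this fit, at a log2 difference of -0.57 with separate groups (adjusted p = 0.17, edgeR). A gene not called here may therefore still differ. A fit of all testis libraries together called Pik3cd lower (adjusted p = 0.025, edgeR). At an unadjusted p under 0.05, 3 of the 9 differed, Top3a, Elfn1 and Pik3cd, as did 1552 of the 17816 genes tested. Elfn1 was at 17.3, 23.1 and 16.6 CPM in wild type and 8.44 and 14.1 in the knockout, a log2 difference of -0.76 with a 95% interval of -1.35 to -0.16 (adjusted p = 0.32, edgeR). Pik3cd was at 65.9, 74.1 and 59.5 against 33.8 and 52.4 CPM, at -0.63 with an interval of -1.08 to -0.17 (adjusted p = 0.25). Both had separate groups in the direction of the Nkapl alleles. Top3a, at 74.8, 72.5 and 75.8 against 84.5 and 87.4 CPM, was the remaining gene whose groups did not overlap, also in the direction of the Nkapl alleles. Groups did not overlap for 9.85% of genes (higher) and 11.1% (lower).

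The other 6 genes overlapped between Sox30 knockout and wild type. Fa2h was at 49.2, 63.5 and 45.3 CPM in wild type and 27.0 and 54.2 in the knockout, so the 2 knockout libraries differed by more than the groups. Tsnaxip1 stood at 175, 217 and 165 against 154 and 207, and Ccdc38 at 567, 782 and 519 against 438 and 667. Sox30 knockout 1 was the lower of the knockout libraries for all 5 genes that fall with the Nkapl alleles. Without it the log2 differences of Fa2h, Tsnaxip1 and Ccdc38 changed from -0.37, -0.04 and -0.17 to 0.04, 0.15 and 0.10. Rassf1 (-0.12, interval -0.35 to 0.12), Kri1 (0.07, -0.15 to 0.28) and Ccdc77 (0.11, -0.15 to 0.37) had intervals that include 0. The Ccdc77 interval also holds its 0.19 from Nkapl knockout testis, and those of Rassf1 and Kri1 end below their 0.41 there. Those Nkapl values chose the genes and have their own error, so no conclusion is drawn from setting them side by side. The Sox30 and Nkapl effects were not tested against each other, since the sets have their own wild types and were run as separate fits.

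Genes of the same pathways as the 9 were counted from lists of known partners, beside which stand the shares of all genes called, 29.0% higher and 31.0% lower in spermatids and 33.6% and 25.7% in spermatocytes by label. Of 24 small-subunit processome genes, which share Kri1's step in ribosome assembly, 13 rose and 1 fell in knockout spermatids and 17 rose and 2 fell in the spermatocytes labelled knockout. Imp4, a core processome protein, rose 1.71-fold in spermatids and 2.23-fold in spermatocytes by label (adjusted p = 8.0e-10 and 1.4e-14, edgeR). The list's median log2 difference was 0.29 in spermatids and 0.36 in spermatocytes, beside 0.03 and 0.07 over all genes. Of 12 genes of the BLM complex and other topoisomerases, 6 rose and 2 fell in spermatids and 6 rose and 1 fell in spermatocytes by label, with medians of 0.30 and 0.22. Top3b, the other type IA topoisomerase, rose 1.44-fold in spermatocytes by label (adjusted p = 1.1e-09). The 15 RASSF and Hippo genes tested were divided, 5 rising and 7 falling in spermatids and 5 each way in spermatocytes, which is near those shares. Lats1, a Hippo kinase, fell 1.69-fold in spermatids (adjusted p = 6.7e-10).

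Partners of the falling genes were mixed too. The list for Ccdc38, shared with the rising gene Ccdc77, holds 23 genes for the manchette, head-to-tail coupling and transport in sperm. Of these, 2 rose and 13 fell in knockout spermatids, and 7 rose and 10 fell in spermatocytes by label. Pmfbp1, a head-tail coupling protein, was 1.71-fold lower in spermatids (adjusted p = 5.5e-15, edgeR). In testis 21 of the 23 were lower in the Nkapl knockout, where 26.1% of all genes were called lower. In TGdel 0 were, and with 1.05% of all genes called lower there this count is near the background. At an unadjusted p under 0.05 (edgeR) 6 of the 23 differed in TGdel, and DESeq2 called 3. The 17 sphingolipid genes tested gave 6 rises and 2 falls in spermatids and 5 rises and 3 falls in spermatocytes by label. The rises were near the shares of all genes called and the falls under them. In TGdel testis, where 0.200% of all genes were called higher and 1.05% lower, 2 of the list's 18 tested genes were lower and 0 higher. These were Sgms2 at -1.61 and Arsa at -0.64 on the log2 scale. Both were also lower in the Nkapl knockout, at -1.53 and -1.07. Cers3, a ceramide synthase, rose 1.73-fold in spermatids (adjusted p = 1.8e-11). Of 7 translin partners 1 rose and 4 fell in spermatids, among them Fhl5, the coactivator of CREM, 2.13-fold lower (adjusted p = 1.8e-16), and 3 rose and 3 fell in spermatocytes by label. The 14 class I PI3K genes tested split into 3 rises and 6 falls in spermatids and 6 of each in spermatocytes by label. Pdpk1, a kinase acting after PI3K, was 1.92-fold lower in spermatids (adjusted p = 4.0e-14). The group III glutamate receptors called in spermatids were at low levels. Grm6 was at 2.58 CPM in wild-type and 0.430 in knockout spermatids (adjusted p = 1.8e-07, edgeR). Grm4 went the other way, from 0.436 to 0.946 CPM (adjusted p = 0.024, edgeR). In the Sox30 knockout only 2 genes of these 8 lists were called, Sun5 and Odf1, both of the manchette list and both lower. Of all genes tested there, 0.505% were called higher and 1.92% lower.

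Genes next to the 9 on the chromosome were counted in the same comparisons. In TGdel and in Sox30 knockout testis 0 of the 19 neighbouring or overlapping protein-coding genes tested were called by edgeR (2 and 1 at an unadjusted p under 0.05, and 1 and 0 by DESeq2), and in TGdel their log2 differences ran from -0.23 to 0.25. With 0.200% and 1.05% of all genes called in TGdel and 0.505% and 1.92% in the Sox30 knockout, a count of 0 is near the background. Beside the rising genes, 5 of 8 neighbours were called higher and 1 lower in knockout spermatids (29.0% and 31.0% of all genes), and 4 higher and 0 lower in the spermatocytes labelled knockout (33.6% and 25.7%). Zmynd10, a dynein assembly factor that ends 235 bases before Rassf1 on the same strand, rose by 0.84 ± 0.05 there and by 0.55 ± 0.05 in the spermatocytes labelled knockout (adjusted p = 3.7e-15 and 2.8e-11), and stood at 0.00 in Nkapl knockout testis. In that testis 0 of the 8 were called higher and 1 lower beside the rising genes, and 5 of the 11 higher and 1 lower beside the falling ones, where 17.8% and 26.1% of all genes were called. Cdkn2d, a cell cycle inhibitor 440 bases from Kri1, rose by 0.81 ± 0.07 in spermatids (adjusted p = 6.9e-11). Smcr8 starts 158 bases from Top3a on the other strand and was at -0.26 ± 0.09 in spermatids, opposite to Top3a. Beside the falling genes, 4 of 11 neighbours were called higher and 1 lower in spermatids, and 6 higher and 1 lower in spermatocytes by label. The lower one in both was Mlkl, at only 2.35 CPM in wild-type spermatids.

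**Figure D4:**
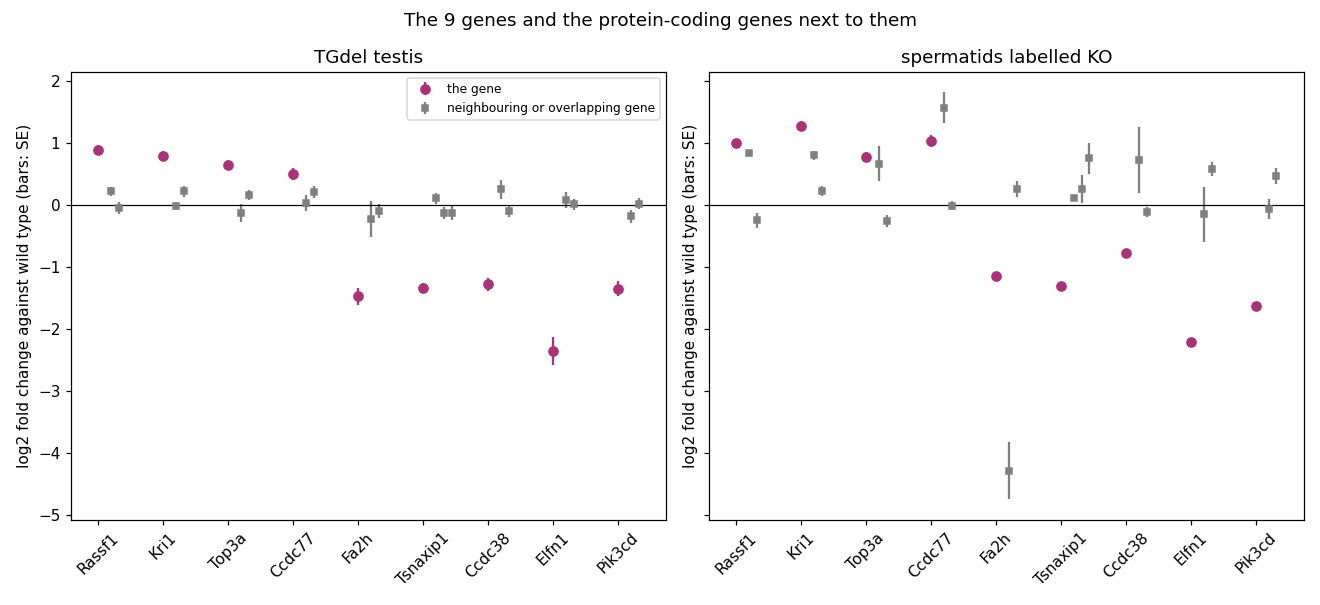
Log2 fold change against wild type of the 9 genes (purple) and of the protein-coding genes next to or overlapping them (grey), with bars for the SE, in TGdel testis (left) and knockout (KO) spermatids (right). In TGdel testis every grey point lies within -0.23 to 0.25, and in spermatids the low grey point beside Fa2h is Mlkl.

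Across the 23 libraries, after removal of each set's mean, the 9 genes fell into their own groups. The 6 pairs of rising genes had Pearson's r of 0.909 to 0.991 and the 10 pairs of falling genes 0.883 to 0.971, while the 20 mixed pairs had -0.825 to -0.305. The points share sets, stages and the groups that chose the genes, so these values describe likeness only. Among 14174 genes compared, the nearest to Rassf1 was Kri1 (r = 0.991) and then Tcta (0.983), and the nearest to Kri1 after Rassf1 was Hemk1 (0.988). Top3a was most like Myo1a (0.984) and Lmln (0.978), and Ccdc77 most like Topors (0.991) and Adal (0.990). Fa2h and Elfn1 had Hpcal4 in common (0.976 and 0.978), next to Fam46b (0.988) for Fa2h and Gfra2 (0.980) for Elfn1. Tsnaxip1 was nearest to Dnaic1 (0.9746) and B9d1 (0.969), Ccdc38 to 4930423M02Rik (0.973) and Kif9 (0.960), and Pik3cd to Larp6 (0.971) and Dnah6 (0.964).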

How the data were processed

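The authors deposited raw read counts per gene symbol unscaled. The tools HISAT2 2.1.0, DESeq2 and HTSeq and the build mm10 appear, with no role, per the submitters' processing notes; annotation and strand setting: not given in the sources used here. Per the labels, libraries were stranded TruSeq total RNA. HTSeq's summary lines in the sorted-cell files (18.8% to 24.6% of each) were left out. Repeated columns were used once and libraries grouped by column heading. Genes passing edgeR's filterByExpr were tested with edgeR 4.0.16 (R 4.3.3; TMM scaling, quasi-likelihood F test, two-sided, Benjamini-Hochberg adjusted p under 0.05 over all genes tested), per testis set and over the 8 sorted libraries together. SE is the log2 fold change over the square root of F, intervals are 95%, and likeness used log2(CPM + 0.5) for genes with a mean of at least 1. Alternatives included DESeq2 1.42.0. The steps were tested on simulated data. Gene positions are from GENCODE M21 (GRCm38). Neighbours, 2 called genes with the smallest p of each list and 2 most alike genes were named by rule; examples given above are some of these. The members and lists were chosen with earlier results of these data known. Replicate numbers were not taken to pair libraries.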

Additional observations from a re-analysis of the deposited data

Results flagged for a closer look

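These genes had a knockout effect that differed between round spermatids and spermatocytes in the contrast of all 8 sorted libraries (edgeR's quasi-likelihood test, Benjamini-Hochberg adjusted), the spermatocyte groups being those labelled knockout and wild type. As log2 effect in spermatids minus that in spermatocytes, Top3a was at -0.93 (adjusted p = 5.7e-08), Fa2h at 0.54 (1.5e-05), Elfn1 at 0.56 (0.00044), Tsnaxip1 at -0.30 (0.0018), Ccdc38 at -0.22 (0.019) and Pik3cd at -0.25 (0.028). Nkapl was at -2.40 (adjusted p = 4.9e-18), having fallen in knockout spermatids and being higher in the spermatocytes labelled knockout. Sox30 was at -0.32 (0.0056).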

How the results depend on the processing

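All 9 genes kept direction and call in both sorted comparisons under all 8 alternatives each. The cause of the changes below was not tested.
In the Sox30 knockout (90 genes higher, 342 lower), DESeq2 gave 144 and 633, all testis libraries in 1 fit 183 and 713 (with 1 of the 9 called lower, Pik3cd), agreeing libraries 610 lower, and grouping by file record 0 and 0 (1202 at an unadjusted p under 0.05). Leaving out 1 library gave 12 to 83 higher (lowest without knockout 2) and 7 to 610 lower (lowest without knockout 1), and 0 of the 9. Omissions took Fa2h from -0.96 to 0.042, Tsnaxip1 from -0.27 to 0.15 and Ccdc38 from -0.51 to 0.10, the highest without knockout 1. Tsnaxip1 and Ccdc38 were also above 0 without wild type 2.
For the difference between cell types (1426 higher, 2599 lower), DESeq2 gave 944 and 1248, and no filter on low counts 1681 lower. Of the 9 genes, 2 in place of 4 were lower under DESeq2, no filter and RLE size factors. Omissions gave 933 to 1472 higher, 1417 to 2977 lower and 1 to 4 of the 9 lower. Of genes not called, Ccdc77 turned to 0.037 (DESeq2), 0.027 (no filter) and 0.047 (RLE) and ranged under omissions from -0.051 to 0.12, Kri1 from -0.0045 to 0.14 and Rassf1 from -0.12 to 0.043.
Genes called in the Nkapl knockout (3013 higher, 4420 lower) were 1949 higher by DESeq2, 833 and 2518 in 1 fit of all testis libraries, 0 and 0 by file record (415 unadjusted), and 1816 to 3169 higher under omissions. In TGdel (32 higher, 168 lower) they were 215 and 365 by DESeq2, 12 and 76 unfiltered, 8 and 320 over agreeing libraries, 205 higher in 1 fit, 0 and 0 by file record (187 unadjusted), and 0 to 99 higher and 0 to 405 lower under omissions.
With the replicate number as a block, the Sox30 knockout gave 358 higher and 1370 lower, 3 of the 9 among them (Fa2h, Elfn1 and Pik3cd), and TGdel 0 and 0 (1686 at an unadjusted p under 0.05). Deviations of same-numbered libraries correlated at 0.13 and 0.53 in the Sox30 set, at -0.32 and -0.26 in the TGdel set and at -0.02 to 0.05 elsewhere. No other count of the 9 changed under the block.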
